A study of Mus musculus with 72 samples.

Results

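The bombesin-family genes of the mouse were followed in 6 melanoma lines. They are the receptors Grpr, Nmbr and Brs3 and the ligand genes Grp and Nmb, and they were taken by symbol from the count table, where they are 5 of 50600 genes. All 5 were listed in all 72 libraries, but only Grpr and Nmb passed the filter on low counts. Nmbr, Brs3 and Grp were therefore described by their reads and not tested.

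GRPR and NMBR are receptors of the cell surface that couple to G proteins of the Gq class, activate phospholipase C and release calcium from internal stores. Gastrin-releasing peptide (GRP), the product of Grp, prefers GRPR, and neuromedin B, the product of Nmb, prefers NMBR, while BRS3 is known as an orphan receptor that binds both peptides poorly. The family is best known for smooth muscle contraction, secretion, itch and the growth of some tumours.

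Lines 1057 and 1064 came from melanomas of female mice with NRAS under the Tyr promoter, without Cdkn2a, and with Cdh1, the gene of E-cadherin, deleted by a Cre also under the Tyr promoter (Tyr::NRASQ61K/°; Cdkn2a-/-; Tyr::CreA/°; Cdh1dF/dF), and they are labelled GRPR-positive. Line 1181, labelled male, has the same NRAS transgene, Cdkn2a-/- and floxed Cdh1 but no Cre. Line 1014, labelled female, is given with the NRAS transgene alone. Both were given a plasmid with a CMV promoter, either CMV::tGFP, which encodes a green fluorescent protein, in the controls 1181-Ctrl and 1014-Ctrl, or CMV::Grpr/tGFP, which adds murine Grpr, in 1181-Grpr and 1014-Grpr. The Tyr promoter restricts the transgenes largely to pigment cells, and a cultured line stands for the tumour it came from, so a difference between lines is also one between tumours.

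Cells of each line were starved for 18 h, then kept for 4 h in 0.5% serum with DMSO (mock), 10 nM GRP, 1 µM of RC-3095, an antagonist of GRPR called RC here, or both agents (GRP+RC). There were 3 libraries of each of the 4 treatments in each line. Levels are given as CPM, reads scaled to the TMM-normalized size of the library, and in comparisons between genes as the authors' TPM, which is also scaled by transcript length. A gene is called where edgeR's quasi-likelihood test gave a Benjamini-Hochberg adjusted p under 0.05 over all genes tested and the log2 fold change exceeded 1 in size.

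Grpr lies on the minus strand of the X chromosome (chrX:163513904-163549677, GRCm38), with 3 exons and 2523 exon bases that no other gene overlaps. Brs3 is on the plus strand of the same chromosome (chrX:57043074-57048758), also with 3 exons and no overlap. Nmbr lies on chromosome 10 (chr10:14705591-14770850, plus strand), and 15.6% of its exon bases are overlapped by B230364G03Rik on the other strand. Nmb lies on chromosome 7 (chr7:80902227-80905076, minus strand), and Sec11a on the same strand overlaps 20.6% of its 793 exon bases, so that some of its few reads are assigned with less certainty.

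Since the receptors are related, the longest exact stretches that their coding sequences share were searched, because reads from such a stretch could be counted for the wrong receptor. The coding sequences hold 1152 bases in Grpr, 1170 in Nmbr and 1197 in Brs3, without the stop codon. The longest shared runs are printed here in the 5′ to 3′ direction of the genes, from GRCm38 (Grpr and Nmbr at chrX:163549025-163549039 and chr10:14760553-14760567, Grpr and Brs3 at chrX:163515079-163515095 and chrX:57047130-57047146, Nmbr and Brs3 at chr10:14760696-14760710 and chrX:57043664-57043678).
Grpr and Nmbr: gacctgctgctgctg
Grpr and Brs3: gtgaacccctttgctct
Nmbr and Brs3: tctcagcgctgacag
None was longer than 17 bases.

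The 250 bases before the RefSeq start of Grpr (chrX:163549737-163549986, minus strand, GRCm38.p6) are shown because 1057 and 1064 express the endogenous gene, whereas the plasmid carries a CMV promoter. The capitals mark TGACG, the core letters of the cAMP response element, which lie 80 to 76 bases before the start.
Grpr promoter: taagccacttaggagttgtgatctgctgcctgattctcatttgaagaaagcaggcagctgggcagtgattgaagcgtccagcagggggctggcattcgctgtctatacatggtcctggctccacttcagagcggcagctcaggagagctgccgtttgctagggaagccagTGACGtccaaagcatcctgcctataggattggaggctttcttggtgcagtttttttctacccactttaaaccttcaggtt
TGACG was found on either strand in 17.8% of 32851 promoters of that length. The full element TGACGTCA (in 1.5% of promoters), the AP-1 letters TGANTCA (6.7%), the TEAD letters GGAATG (12.6%), the full palindromic oestrogen response element (0.1%), its core AGGTCA (14.0%) and the TCF/LEF letters TTCAAAG (4.5%) were not found in this window on either strand. The full cAMP response element begins with the letters of the marked core. These matches describe letters only.

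Sex-linked transcripts, Grpr and Cdh1 were read as a check of the labels before any comparison. A mock library, replicate 2 of 1014-Ctrl by its label, held 48.1 CPM of Grpr (1165 reads) and 64.2 CPM of Ddx3y, a gene of the Y chromosome, where the other 1014-Ctrl libraries had no Ddx3y and at most 1 read of Grpr. Replicate 2 of 1181-Grpr under GRP+RC, again by its label, had no read of either gene. These 2 discordant libraries were kept under their labels, and several results that rest on them are given with and without them. The other 11 libraries labelled 1181-Grpr also held Xist, the transcript of the inactive X chromosome, at 193 CPM or more, against at most 0.64 CPM in 1181-Ctrl, together with Ddx3y. The discordant libraries aside, all 47 genes above 5 CPM in every 1014 library and at 3 reads or fewer in every 1181-Ctrl library were above that floor in all 11, at a median of 31.6% of their 1014 level. Library by library this share lay between 29.5% and 33.1%, and it was 32.4% in the discordant library labelled 1014-Ctrl. The 87 genes found only in 1181-Ctrl by the same rule stood in 1181-Grpr at a median of 63.2% of their 1181-Ctrl level. So the libraries labelled 1181-Grpr carry transcripts of both 1181 and 1014, and how much of their Grpr came from each was not tested.

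**Figure D1:**
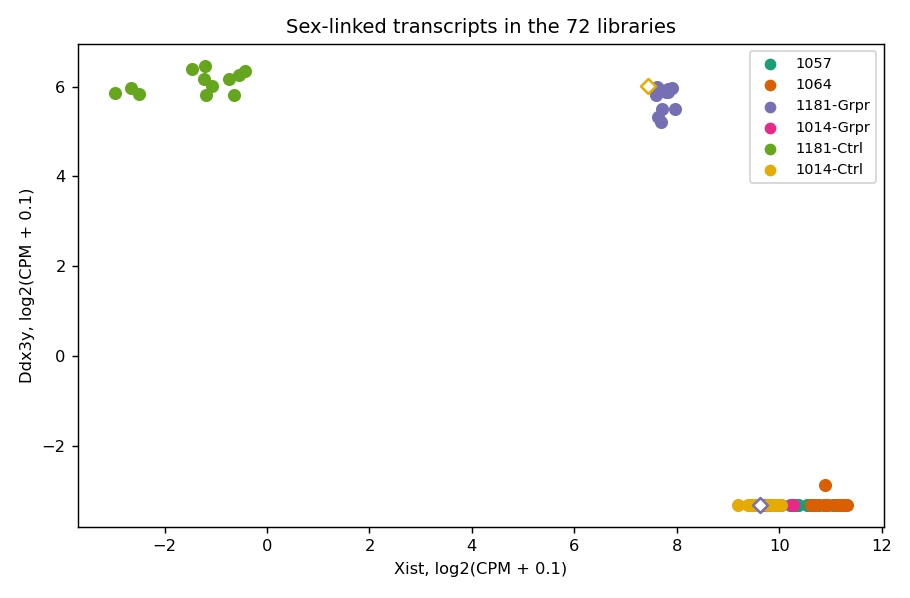
Each point is 1 of the 72 libraries, with Xist on the x axis and Ddx3y on the y axis, both as log2 of CPM plus 0.1; open diamonds are the 2 discordant libraries. The 1181-Ctrl libraries sit at low Xist and high Ddx3y, the 1181-Grpr libraries at high values of both, and each diamond lies beside libraries of the other label.

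The libraries held 19512882 to 46862053 counted reads with a median of 28112904.5, and 3 reads, taken as the floor, correspond to 0.0666 to 0.16 CPM. All 7 melanocyte markers examined, among them Mitf, Sox10 and Dct, exceeded 1 CPM in every line. Markers of other cell types were lower in sum. Of 4 leukocyte genes, 2 exceeded 1 CPM in every line, with sums of 3.16 to 55.7 CPM and the T cell gene Cd3e at or under the floor. Of 4 fibroblast genes, 1 to 3 did so, with sums of 0.587 to 21.6 CPM, the 3 being in 1064, and with Lum under the floor. Of 3 endothelial genes, 1 exceeded 1 CPM in 1057 and 1064 and 0 in the other lines (sums of 0.0338 to 6.94 CPM). Of 4 keratinocyte genes, 1 did so in 1057 and 1064 and 0 elsewhere (sums of 0 to 5.23 CPM), with Krt5, Krt14 and Krt1 at or under the floor. In the neuroendocrine list, at most 1 of 4 genes exceeded 1 CPM (sums of 0.288 to 10.4 CPM). Their part in the levels of the 5 genes was not tested.

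Among the 5 genes, Grpr was the only one with a high resting level in any line. In 1064, mock cells had 950, 1280 and 786 CPM of Grpr (1010 ± 252, SD, n = 3). Mock 1057 cells had 274, 275 and 273 CPM (274 ± 1.00, SD, n = 3). With the plasmid, 1014-Grpr had 126, 107 and 141 CPM (125 ± 17.0, SD, n = 3) and 1181-Grpr 17.7, 9.02 and 8.48 CPM (11.7 ± 5.17, SD, n = 3). The 4 groups did not overlap, and the order ran from 1064 through 1057 and 1014-Grpr to 1181-Grpr. By the authors' TPM, Grpr had a mean of 1230 in 1064, where it ranked 83 among 21295 genes above 0, 327 in 1057 (rank 392 of 22477), 181 in 1014-Grpr (rank 916 of 22886) and 17.5 in 1181-Grpr (rank 7946 of 23520). In bulk RNA, fewer cells that carry Grpr and less Grpr RNA in each cell cannot be told apart, nor can reads of the plasmid and of the endogenous gene in a gene count. Which stretch of Grpr the plasmid carries is not given in the sources used here, so its level per length has that limit.

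The direction between plasmid and control lines is set by the design, so the levels are given as a description. Control cells had almost no Grpr. The 12 libraries of 1181-Ctrl held 12 reads in all, a level of 0.0328 CPM with an exact 95% interval of 0.0169 to 0.0572 for counting error, and 1014-Ctrl held 0 or 1 read a library, apart from the discordant one.

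The spread of Grpr in the discordant mock library decided the tests of neighbours in that order. The log2 difference of 1057 from 1064 was −1.87 (standard error 1.16, adjusted p = 0.197, edgeR's quasi-likelihood test over the 18 mock libraries; 25.0% of all genes were called in this pair). With the discordant library left out it was −1.86 (standard error 0.249, adjusted p = 2.40e-05; 27.0% of all genes called). The step from 1014-Grpr to 1057 was 1.11 with all libraries (adjusted p = 0.423) and 1.12 without that library (adjusted p = 0.00117; 35.9% of all genes called). The step from 1014-Grpr to 1181-Grpr was −3.42 with all libraries (adjusted p = 0.0508) and −3.41 without it (adjusted p = 2.93e-07; 16.0% of all genes called). Sizes were thus alike with and without that library, and in this fit of 18 libraries the 3 steps were called only without it.

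**Figure D2:**
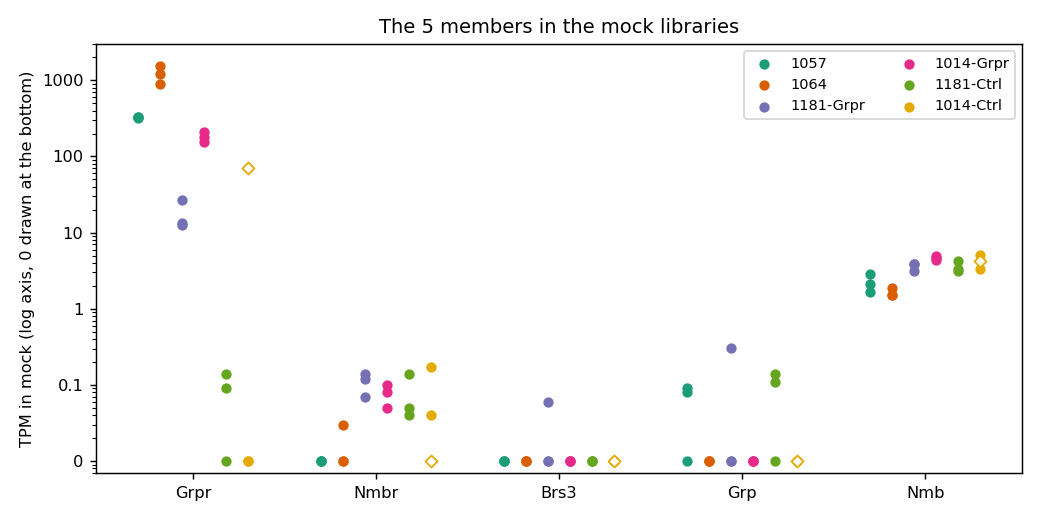
TPM of the 5 genes in the 18 mock libraries on a log axis, with values of 0 drawn at the bottom; colours are lines, points are libraries and open diamonds the discordant 1014-Ctrl library. Grpr reaches means of 1230 in 1064 and 327 in 1057, Nmb has means of 1.63 to 4.66, and Nmbr, Brs3 and Grp lie near the bottom in every line.

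GRP for 4 h, the ligand of the receptor, moved Grpr in opposite directions in the lines with endogenous Grpr and in the lines with the plasmid. In 1057 the GRP libraries had 205, 197 and 210 CPM (204 ± 6.56, SD, n = 3), all below the 273 CPM of the lowest mock library. This was −0.40 on the log2 scale (standard error 0.0370, adjusted p = 3.77e-08), under the fold threshold, in a comparison where 52.6% of all genes passed the adjusted p (26.9% of all genes lower) and 6.46% were called. The fall in 1057 was not particular to GRP: RC alone gave −0.39 and GRP+RC −0.47. In 1064 the GRP libraries had 472, 508 and 519 CPM (500 ± 24.6, SD, n = 3), again all below every mock library, whose lowest value was 786 CPM. Grpr was called lower there, by −1.01 on the log2 scale (standard error 0.156, adjusted p = 0.00788), beside 2.32% of all genes called and 0.797% called lower. The size lay at the threshold: with the replicate number as a block, which pairs the 1064 libraries, it was −0.99 (standard error 0.121, adjusted p = 1.95e-04) and no longer counted as a call.

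The lines with the plasmid had more Grpr after GRP. In 1014-Grpr the GRP libraries had 399, 569 and 620 CPM (529 ± 116, SD, n = 3), against at most 141 CPM in mock. Grpr was called higher, by 2.10 on the log2 scale (standard error 0.182, adjusted p = 7.52e-06), beside 4.01% of all genes called in that line. In 1181-Grpr the GRP libraries had 79.9, 19.1 and 39.5 CPM (46.2 ± 30.9, SD, n = 3), all above the highest mock library at 17.7 CPM but spread over a wide range. Here edgeR gave 1.97 (standard error 1.12, adjusted p = 1.00), and called 0% of all genes, with 45 of 14506 genes at an unadjusted p under 0.05 and 0 called by DESeq2. Between libraries of the same number, the ratio of GRP to mock was 4.51, 2.12 and 4.66. With the discordant library left out and the number as a block, the change was 1.95 (standard error 0.124, adjusted p = 8.19e-10), a call beside 0.108% of all genes; without the block it was 1.97 (standard error 0.558, adjusted p = 1.00).

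The opposite changes were compared in one test, chosen after the data were seen. The mean GRP effect on Grpr in 1181-Grpr and 1014-Grpr less that in 1057 and 1064 was 2.75 on the log2 scale (standard error 0.554, adjusted p = 0.00200, edgeR), where 0.871% of all genes were called. Every GRP library of the plasmid lines was above, and every GRP library of 1057 and 1064 below, every mock library of its line. Without replicate 1 the difference was 2.73 (adjusted p = 0.0889) and without replicate 3 it was 2.80 (adjusted p = 0.167), and neither was called. Without replicate 2, and so without the discordant 1181-Grpr library, it was 2.67 (standard error 0.368, adjusted p = 5.82e-04), still a call. The fits without replicate 1 or 3 keep that library. With that library alone left out, the difference was 2.75 (standard error 0.31, adjusted p = 4.94e-07). With a replicate block within line, and that library kept, it was 2.67 (standard error 0.366, adjusted p = 4.01e-06). Both were calls. The plasmid lines differ from 1057 and 1064 in promoter, genotype and tumour of origin, and these cannot be told apart. Of the other cell type markers, Cd68, a lysosomal protein used as a macrophage marker, was the one called with GRP, at 1.99 in 1057 (6.02 ± 0.376 against 1.54 ± 0.257 CPM, SD, n = 3) and 1.33 in 1014-Grpr, while the summed leukocyte list of 4 genes lay at 24.7 to 30.2 CPM in 1057 and 3.35 to 10.2 CPM in 1014-Grpr, with Cd3e at or under the floor. Its part in the change of Grpr was not tested. Within each kind of line no difference was called: 1014-Grpr less 1181-Grpr was 0.12 (standard error 1.03, adjusted p = 0.984), and 1057 less 1064 was 0.60 (standard error 0.157, adjusted p = 0.0714). The former was 0.13 without the discordant library (standard error 0.57, adjusted p = 0.94), too wide to show like responses. The latter was 0.58 with the block within line (adjusted p = 0.00493) and with DESeq2 (adjusted p = 0.0219). Both passed the adjusted p but not the fold threshold.

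**Figure D3:**
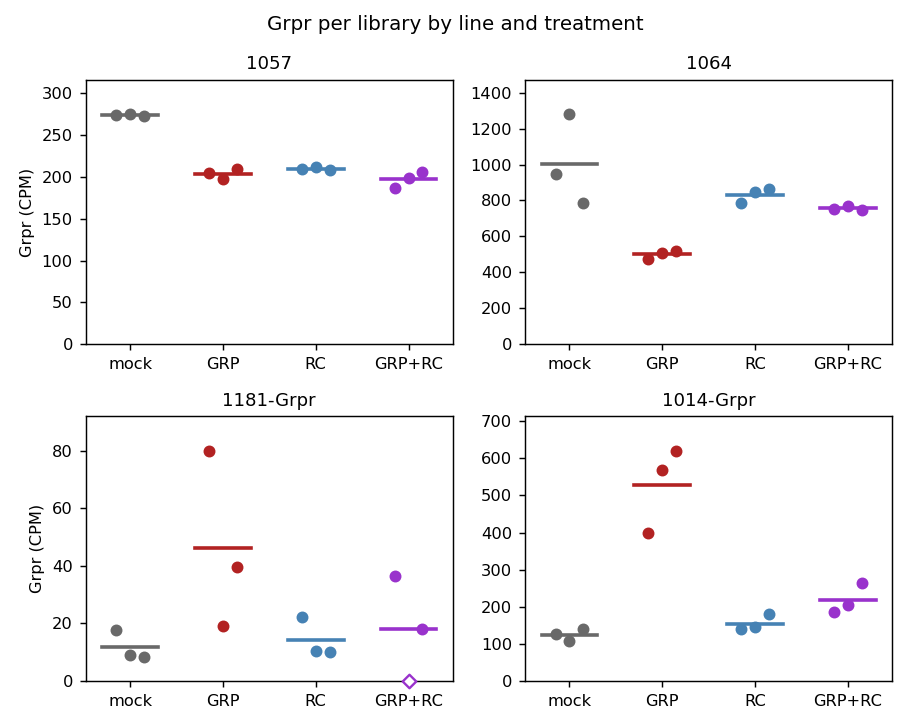
Grpr in CPM on linear axes from 0, one panel for each GRPR-expressing line; points are libraries, bars the means of 3, and the open diamond the discordant library. GRP libraries lie below mock in 1057 and 1064 and above mock in 1181-Grpr and 1014-Grpr.

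RC alone, the antagonist without the ligand, changed Grpr beyond the adjusted p only in the 1057 fit. The replicates of 1057 also lay closer together than those of any other line. There the RC libraries had 209, 212 and 208 CPM (210 ± 2.08, SD, n = 3), a log2 fold change of −0.39 (adjusted p = 4.12e-07, under the fold threshold), beside 0.888% of all genes called and 24.3% past the adjusted p. GRP gave a like change of Grpr in 1057, at −0.40. Whether blocking of the receptor led to the change with RC was not tested. In 1064 RC gave 788, 846 and 864 CPM (833 ± 39.7, SD, n = 3), which lies among the mock values, with −0.28 (adjusted p = 1.00). In 1014-Grpr it gave 139, 144 and 180 CPM (154 ± 22.4, SD, n = 3) and 0.31 (adjusted p = 1.00), and in 1181-Grpr 22.3, 10.5 and 9.98 CPM (14.3 ± 6.97, SD, n = 3) and 0.28, both overlapping mock.

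Given with GRP, the antagonist left Grpr in 1014-Grpr between its mock and GRP values. In 1014-Grpr the GRP+RC libraries had 186, 205 and 264 CPM (218 ± 40.7, SD, n = 3), below every GRP library and above every mock library. Against GRP the change was called, at −1.30 (standard error 0.177, adjusted p = 6.03e-04), beside 1.73% of all genes called. Against mock it was 0.81 (standard error 0.177, adjusted p = 0.0565; 0.189% of all genes called), and with the replicate block 0.79 (adjusted p = 4.20e-06, passed by 17.3% of all genes), under the fold threshold in both fits.

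For Grpr in 1064 the GRP+RC libraries had 750, 770 and 747 CPM (756 ± 12.5, SD, n = 3), all above every GRP library and below every mock library. Against mock the change was −0.42 (standard error 0.155, adjusted p = 1.00), and with the replicate block −0.41 (adjusted p = 0.158). From GRP the log2 difference was 0.58 (standard error 0.155, adjusted p = 0.231), where 0.0145% of all genes were called, and it passed the adjusted p but not the fold with the block (adjusted p = 0.00854, passed by 21.2% of all genes). In 1057 the GRP+RC libraries had 187, 199 and 206 CPM (197 ± 9.61, SD, n = 3), which overlap the GRP libraries. There the change against mock was −0.47 (adjusted p = 9.34e-09) and against GRP −0.07 (adjusted p = 0.237), beside 3.47% and 1.02% of all genes called. In the first of these 44.3% of all genes passed the adjusted p.

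For Grpr in 1181-Grpr the GRP+RC libraries had 36.5, 0 and 18.1 CPM (18.2 ± 18.3, SD, n = 3), and without the discordant library, which is the one at 0, the mean of the other 2 was 27.3 CPM. The same-numbered ratios to mock were 2.06 and 2.13 in the 2 remaining pairs. With all libraries the change was 0.63 against mock (adjusted p = 0.884) and −1.34 against GRP (adjusted p = 0.855). Without the discordant library and with the block it was 0.94 against mock (standard error 0.148, adjusted p = 0.0256, passed by 0.00677% of all genes) and −1.02 against GRP (standard error 0.125, adjusted p = 4.19e-04), the latter a call beside 0.0406% of all genes.

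**Figure D4:**
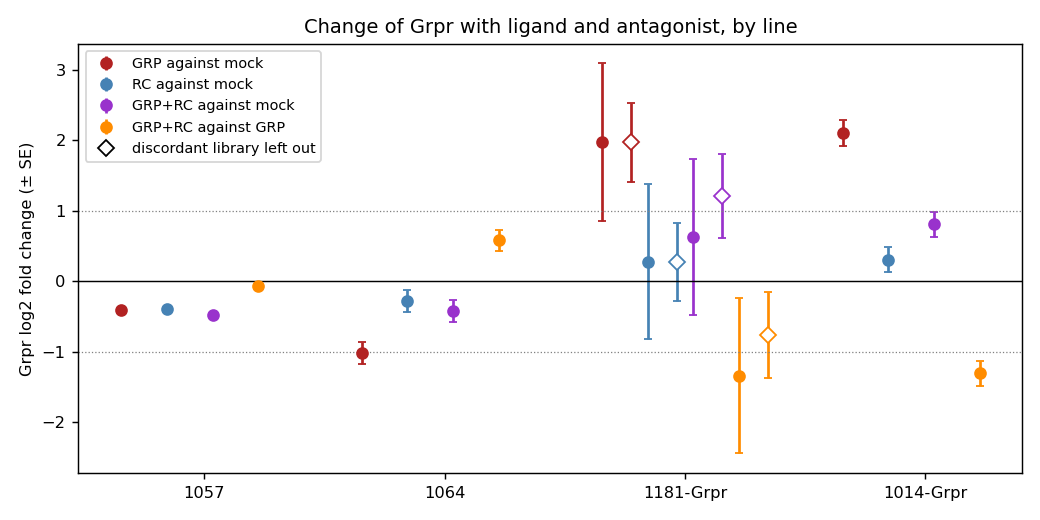
Log2 fold change of Grpr with its standard error in the 4 GRPR-expressing lines; filled points are the fits of all 12 libraries, open diamonds the 1181-Grpr fit without the discordant library, and dotted lines the fold threshold. Against mock, GRP gave −0.40 in 1057, −1.01 in 1064, 1.97 in 1181-Grpr and 2.10 in 1014-Grpr.

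Because the directions differed, the mean change of Grpr over the 4 lines was small against its spread. It was 0.61 for GRP (adjusted p = 0.275 over 9 tests, exact permutation of treatment labels within lines, two-sided), −0.02 for RC and −0.20 for GRP+RC (both adjusted p = 0.903). The value for GRP+RC took its sign from the discordant 1181-Grpr library and was 0.28 without it (adjusted p = 0.430 by the same permutation). Of the 12 GRP libraries, 6 lay above and 6 below every mock library of their line.

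NMBR, the receptor of neuromedin B, was near absent as RNA. Nmbr had 148 reads over the 72 libraries, at least 1 in 51 of them, a pooled level of 0.0718 CPM (exact 95% interval 0.0607 to 0.0844, counting error only). The reads were 4 in 1057, 12 in 1064, 23 in 1014-Grpr, 28 in 1014-Ctrl, 35 in 1181-Grpr and 46 in 1181-Ctrl, where all 12 libraries had some. The level in 1181-Ctrl was 0.126 CPM (0.0919 to 0.168) and that in 1057 0.0105 CPM (0.00287 to 0.0270), intervals that do not overlap. The highest counts were 11 in the discordant 1181-Grpr library and 9 in 1014-Ctrl GRP+RC replicate 2. The Nmbr counts of single libraries were too low to show a change with treatment: in 1181-Ctrl, GRP+RC gave 8, 7 and 4 reads and mock 3, 1 and 1.

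Brs3, the orphan receptor, had 2 reads in all, both in 1181-Grpr, a level of 0.000971 CPM (exact 95% interval 0.000118 to 0.00351). One of them was in the discordant library, and the other 1181-Grpr libraries held 1 read. In a line without a read, the limit that a count of 0 allows, 3 reads over its 12 libraries, was at most 0.0101 CPM.

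The ligand gene Grp, on chromosome 18, where no other gene overlaps its exons, was also near absent. Grp had 20 reads in 13 of 72 libraries and at most 3 in one. Of these, 8 reads were in 6 libraries of 1057, 7 in 4 of 1181-Ctrl, 4 in 2 of 1181-Grpr and 1 in 1014-Grpr. In 1064, the line with the most Grpr, and in 1014-Ctrl it had no read, which allows a level of up to 0.0101 and 0.00896 CPM.

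Nmb, the gene of neuromedin B, was the one ligand gene with reads in every library, at a low level. The counts ran from 9 to 42 reads, 1681 in all, or 0.816 CPM (exact 95% interval 0.777 to 0.856). In TPM the mock means lay between 1.63 in 1064 and 4.66 in 1014-Grpr. In mock, Nmb was lowest in 1064 at 0.371, 0.480 and 0.416 CPM (0.422 ± 0.0548, SD, n = 3), followed by 1057 with 0.768, 0.433 and 0.551 CPM (0.584 ± 0.170, SD, n = 3). Means of 0.731 CPM in 1181-Ctrl, 0.775 in 1181-Grpr and 0.904 in 1014-Ctrl followed, and 1014-Grpr was highest at 1.01 ± 0.0776 CPM (SD, n = 3).

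The line with most Grpr thus had least Nmb, and the line differences of Nmb were tested over the same 18 mock libraries. In 1064 Nmb was lower than in 1014-Grpr by −1.29 (standard error 0.275, adjusted p = 0.00107) and than in 1014-Ctrl by −1.11 (standard error 0.277, adjusted p = 0.00365) on the log2 scale. Both were called, beside 28.9% and 26.6% of all genes in those pairs. Without the discordant library the difference from 1014-Ctrl was −1.12 (adjusted p = 0.00790), still a call. The steps of 1064 from the 1181 lines were smaller than the fold threshold: −0.88 from 1181-Grpr (adjusted p = 0.0144) and −0.79 from 1181-Ctrl (adjusted p = 0.0237). Line 1057 less 1064 was 0.47 (standard error 0.280, adjusted p = 0.199), so 1064 was not shown to have less Nmb than 1057. Line 1057 was lower than 1014-Grpr by −0.81 (adjusted p = 0.0142), also under that threshold.

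Treatment changed Nmb beyond the threshold in 1 of 24 comparisons. In 1057, GRP+RC gave 1.17, 0.982 and 1.44 CPM (1.20 ± 0.230, SD, n = 3), all above the highest mock library at 0.768 CPM. It was a log2 change of 1.03 (standard error 0.244, adjusted p = 0.00219, edgeR), beside 3.47% of all genes called in that comparison. Counts of 14 to 42 reads lie behind it, and without replicate 2 or 3 the change was 0.99 (adjusted p = 0.0155) or 0.85 (adjusted p = 0.0545), no longer called.

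GRP alone gave 0.822, 0.797 and 0.996 CPM of Nmb in 1057 (0.872 ± 0.108, SD, n = 3) and RC alone 0.764, 1.01 and 0.962 CPM (0.912 ± 0.130, SD, n = 3). These were changes of 0.60 (adjusted p = 0.0626) and 0.63 (adjusted p = 0.0881), so RC alone lay as far from mock as GRP did. GRP+RC differed from GRP by 0.43 (adjusted p = 0.199). In the other 5 lines the Nmb changes were between −0.33 and 0.76, none past the adjusted p.

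Averaged over 1057, 1064 and the plasmid lines, the change of Nmb, on the log2 of CPM plus 0.5, was 0.28 for GRP+RC (adjusted p = 0.0372 over 9 tests, exact permutation within lines, two-sided). Of the 12 GRP+RC libraries, 9 lay above every mock library of their line and 1 below. With the discordant library left out it was 0.24 (adjusted p = 0.0854), and with same-numbered libraries paired 0.28 (adjusted p = 0.0747). For GRP it was 0.14 (adjusted p = 0.275) and for RC 0.16 (adjusted p = 0.254). In the 2 control lines the means were −0.10, 0.08 and −0.07 for GRP, RC and GRP+RC (adjusted p = 0.531, 0.608 and 0.688 by the same permutation). Without the discordant library these means were again −0.10, 0.08 and −0.07 (adjusted p = 0.562, 0.579 and 0.664). Between the plasmid lines and 1057 with 1064, the GRP effect on Nmb differed by −0.80 (standard error 0.279, adjusted p = 0.119), which did not pass.

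**Figure D5:**
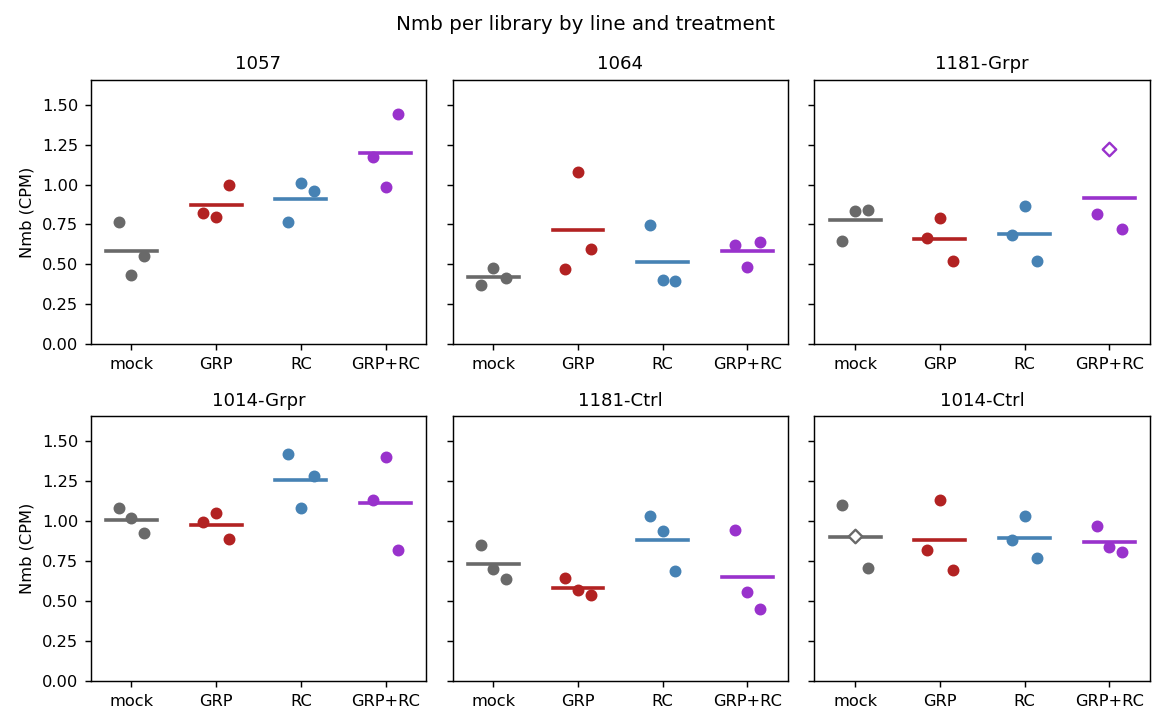
Nmb in CPM in the 72 libraries on linear axes from 0, by line and treatment; points are libraries, bars the means of 3 and open diamonds the 2 discordant libraries. Means run from 0.422 CPM in 1064 mock to 1.26 CPM in 1014-Grpr with RC, and 1057 with GRP+RC reached 1.20 CPM from 0.584 CPM in mock.

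The partners through which the receptors signal were read from a list of 13 G protein, phospholipase C beta and inositol trisphosphate receptor genes, of which 9 or 10 were tested in each line. None was called with GRP, RC or both in a GRPR-expressing line, and the median log2 fold change with GRP lay between −0.06 and 0.00, against −0.02 to 0.00 for all genes. Of all genes, 6.46% were called with GRP in 1057, 2.32% in 1064, 4.01% in 1014-Grpr and 0% in 1181-Grpr. At such shares a list of this size can hold no call, so the count says little about these genes. Their RNA was present in all lines: Gna11, a Gq-class alpha subunit, had mock means of 119 to 154 TPM, its relative Gnaq 49.8 to 99.9 TPM, and Plcb3, a phospholipase they activate, 80.7 to 130 TPM.

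The genes that end receptor signals, a list of 10 receptor kinases, arrestins and RGS proteins, held called genes. The list was chosen with earlier results of these data known, and its RGS genes are Rgs2, Rgs4 and Rgs16. RGS proteins speed GTP hydrolysis by G protein alpha subunits, and Rgs2 acts mainly on Gq. GRP raised 3 of 9 tested genes in 1057 (Rgs2, Rgs4 and Rgs16), 2 of 8 in 1064 (Rgs2 and Rgs16), and 2 of 8 in 1014-Grpr (the same Rgs2 and Rgs16), where Grk4, a receptor kinase, fell. Of all genes, GRP raised 4.96% in 1057, 1.52% in 1064 and 3.16% in 1014-Grpr by the same rule. Given how the list was chosen, its higher share is a description and no test. In 1181-Grpr none of 8 was called, and the value of Rgs2 was 0.30 (adjusted p = 1.00).

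Rgs2 rose in 1057 from 2.57 ± 0.115 to 49.3 ± 2.48 CPM (SD, n = 3 each), a log2 change of 4.28 (standard error 0.0828, adjusted p = 2.38e-17). In 1064 it rose from 6.21 ± 4.15 to 59.0 ± 4.78 CPM (SD, n = 3), by 3.25 (adjusted p = 0.00413), and in 1014-Grpr from 3.02 ± 0.506 to 22.1 ± 5.44 CPM (SD, n = 3), by 2.88 (adjusted p = 3.30e-06). The antagonist lowered this rise of Rgs2 in 1014-Grpr, by −1.91 between GRP+RC and GRP, a call, to 5.95 ± 0.599 CPM (SD, n = 3). In 1057 Rgs2 stood at 42.3 ± 4.13 CPM with GRP+RC (SD, n = 3), −0.24 from GRP (adjusted p = 0.00323), and RC alone raised it to 13.2 ± 0.346 CPM (SD, n = 3), by 2.35, a call. In 1064 GRP+RC gave −1.75 against GRP (adjusted p = 0.127), which was called with the replicate block, as were 1.93% of all genes.

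Rgs16 had the widest range of that list, from 0.195 ± 0.146 to 58.2 ± 35.7 CPM with GRP in 1014-Grpr (SD, n = 3), a fitted log2 change of 8.11 from 2 to 12 reads in mock. It rose by 3.86 in 1064 and 1.64 in 1057, and fell by 4.24 between GRP and GRP+RC in 1014-Grpr. Rgs4 in 1057, at 1.10, rests on 3 to 11 reads a library. Grk4 in 1014-Grpr fell from 1.89 ± 0.208 to 0.918 ± 0.0745 CPM (SD, n = 3), a change of −1.02 (adjusted p = 0.00295), and −0.99 with the replicate block, no longer a call.

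Of 10 genes for the maturation and secretion of peptides, 4 or 5 were tested in each GRPR-expressing line. Cpe, which trims prohormones, had 726 to 2650 TPM in mock, Furin, a proprotein convertase, 30.6 to 47.1 TPM, and Pam, which amidates peptides such as GRP, 12.4 to 49.9 TPM, while Pcsk1 was listed at 0. Scg2, a secretory granule protein, was the one called with GRP. It rose from 62.3 ± 2.27 to 181 ± 4.04 CPM in 1057 (SD, n = 3), by 1.57, and from 4.90 ± 0.722 to 17.0 ± 2.54 CPM in 1014-Grpr (SD, n = 3), by 1.82. With GRP+RC it was lower than with GRP by −1.28 in 1014-Grpr, a call, and by −0.82 in 1057. In 1064 Scg2 was 0.82 higher with GRP (adjusted p = 0.790), its mock libraries ranging from 6.31 to 137 CPM, and it was called with the replicate block, as were 6.52% of all genes. None of the 5 peptidase genes listed for the breakdown of bombesin-like peptides was called with GRP. Of all genes, GRP changed 6.46% in 1057, 2.32% in 1064, 4.01% in 1014-Grpr and 0% in 1181-Grpr by the same rule. With the block, Ece1, an endothelin-converting enzyme, was called higher in 1064.

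The study places E-cadherin, beta-catenin and the oestrogen receptor upstream of Grpr, and chose these genes in such lines, so their values are no independent evidence. Cdh1 had a median of 0 CPM in 1057 and 0.0174 in 1064, against 18.0 in 1181-Ctrl, 16.0 in 1181-Grpr, 4.26 in 1014-Ctrl and 1.75 in 1014-Grpr. By median, Esr1, the oestrogen receptor gene, ran over the lines in the reverse order of Cdh1. Its medians were 16.4 CPM in 1057, 7.57 in 1064, 2.59 in 1014-Grpr, 1.91 in 1014-Ctrl, 1.11 in 1181-Grpr and 0.0817 in 1181-Ctrl. The Cdh1 medians of 1057 and 1064 lie under the floor, so the order of this pair for Cdh1 rests on few reads. In mock without the discordant library, 1014-Grpr differed from 1014-Ctrl by 0.58 for Esr1 (standard error 0.311) and −0.33 for Cdh1 (standard error 0.380). Neither passed the adjusted p, so the order of that pair was not shown. The 1181-Grpr libraries carry transcripts of 1014, whose part in their Esr1 and Cdh1 was not tested. The line with more Esr1 of the pair 1057 and 1064 was the one with less Grpr.

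No gene of that axis was called with GRP in a GRPR-expressing line. The share of all genes called with GRP was 0% in 1181-Grpr to 6.46% in 1057, so a short list can hold no call. Ctnnb1, the gene of beta-catenin, passed the adjusted p under the fold threshold in 1057 at −0.32 (adjusted p = 2.26e-08) and in 1014-Grpr at −0.27 (adjusted p = 0.0246), and Nkd1, a target and inhibitor of Wnt signals, in 1057 at −0.70 (adjusted p = 1.29e-11). Esr1 moved by 0.11 in 1057 (adjusted p = 0.134) and −0.41 in 1064 (adjusted p = 0.240).

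The genes whose pattern was most like that of a member were ranked by Pearson correlation of group means of log2(CPM + 0.5) over the 24 groups of line and treatment, among 16596 genes. For Grpr they were Dnajc15 (r = 0.924), Ccdc43 (0.899), mt-Nd6 (0.898), Arhgap22 (0.880) and Mtdh (0.876). For Nmb they were Piga (0.843), Spata13 (0.842), Ormdl2 (0.842), Ufm1 (0.840) and Stk3 (0.838). The groups of a line share its genotype, so these values mostly describe differences between 6 lines. Without the discordant libraries the 3 genes most like Grpr were again Dnajc15, Ccdc43 and mt-Nd6, and Piga and Spata13 still led the genes most like Nmb.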

How the data were processed

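RNA-seq was done on 72 libraries of 6 mouse melanoma lines, with 3 replicates of each line and treatment. The labels gave line, treatment and replicate number. Libraries were polyA-selected and strand-specific, and reads were aligned with STAR to GRCm38. Per the labels, quality was checked with FastQC 0.11.5. The authors deposited raw read counts per gene, without normalization, which every test used. The authors also deposited TPM values, used for levels between genes and as an alternative, and in other columns, those of 1057, the deposited TPM has a decimal comma, read here as a point. Symbols were assigned to 50376 of 50600 gene identifiers.

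Tests used R 4.3.3, edgeR 4.0.16 and, as alternatives, DESeq2 1.42.0 and limma 3.58.1. One quasi-likelihood fit was made per line after filterByExpr and TMM. A standard error is the size of the log2 change over the root of the F statistic. The fit of each line was checked, for GRP against mock, on simulated counts in which 200 genes changed. Printed CPM are TMM-normalized over all 72 libraries, and pooled levels of sparse genes are reads over the summed totals. The lowest chi-square per degree of freedom between replicates was 2.56, so none is a copy of another. In 1057 these values were 2.56 to 9.85, against 11.6 or more in the other lines. The p-values of 1057 thus rest on a smaller spread, and their size is not comparable with that in other lines. The labels do not say whether replicates are separate cultures, so p-values measure the spread between these samples only. Reads carry no molecular identifiers, so intervals and floors cover counting error only. Positions and sequences are from GENCODE release M21 and, for promoters, RefSeq.

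The text names the 5 members, label checks, called genes or range ends of pathway lists, and the 5 genes most like each tested member. The members and lists were chosen with earlier results of these data known. Same-numbered libraries deviated together (every pair of libraries above 0.1) in 1064, 1014-Grpr and 1181-Ctrl, with mean correlations of 0.733, 0.468 and 0.792, and in 1181-Grpr and 1014-Ctrl once the discordant libraries were left out (0.577 and 0.402), but not in 1057 (0.023). The replicate block was an alternative. The others were DESeq2, no low-count filter, 1 fit of all libraries, each replicate left out, the discordant libraries left out, TPM and another pseudocount. The differences of the GRP effect that join or compare plasmid lines, and the check on transcripts of 1014, were added after the data were seen.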

Additional observations from a re-analysis of the deposited data

Results flagged for a closer look

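The GRP effect on Grpr differed between the lines with the plasmid and those with the endogenous gene, by 2.75 on the log2 scale (standard error 0.554, adjusted p = 0.00200, edgeR's quasi-likelihood test of the difference, chosen after the data were seen). Every GRP library of 1181-Grpr and 1014-Grpr lay above, and every GRP library of 1057 and 1064 below, all mock libraries of its line. The plasmid lines also differ from 1057 and 1064 in genotype and origin, and 1181-Grpr carries transcripts of 1014, whose part in the difference was not tested. In 1057 the fall of Grpr with RC alone, −0.39, was close to the −0.40 with GRP.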

How the results depend on the processing

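Over 36 results and 284 alternative values, 253 kept their direction and side of the threshold, or, for counts, stayed within 1.5 times. The cause of the others was not tested unless their construction gives it. A fold change under the threshold in both fits keeps its side whatever its p. Grpr with GRP in 1057 thus counts as kept, though its adjusted p in edgeR's test was 3.77e-08 by line and 0.827 in 1 fit of all 72 libraries. RC alone and GRP+RC in 1057 also did not pass in that fit. Of 42 values with the replicate block, 38 kept their side of the threshold. The fall of Grpr with GRP in 1064 was −1.0 with DESeq2, −0.99 with the replicate block and −1.01 (adjusted p = 0.439) in 1 fit of all 72 libraries, and ran from −1.19 to −0.80 when a replicate was left out. That fit of all libraries gave 2.09 (adjusted p = 0.0673) for GRP and −1.28 (adjusted p = 0.531) for GRP+RC against GRP in 1014-Grpr, so that of 16 Grpr comparisons 0 were called, against 3 in the fits by line, 2 with the block and 4 without the discordant libraries and with the block. The 2 calls gained in that last setting were 1.95 and −1.02 for GRP against mock and GRP+RC against GRP in 1181-Grpr. In mock, Grpr differed between 1057 and 1064 by −1.88 in the fit of all libraries and −1.86 without the discordant libraries, between 1057 and 1014-Grpr by 1.12 without them, and between 1181-Grpr and 1014-Grpr by −3.40 with no filter or in the fit of all libraries and −3.41 without them. With a replicate left out, the difference between plasmid and endogenous lines ran from 2.67 to 2.80, that of 1014-Grpr less 1181-Grpr from −0.23 to 0.52, the mean change of Grpr with RC from −0.07 to 0.02 and with GRP+RC from −0.48 to 0.27, and the latter was 0.28 without the discordant libraries. For Nmb, the rise with GRP+RC in 1057 ran from 0.85 to 1.29 over the left-out replicates, with 0 to 1 of 24 comparisons called, the difference between 1064 and 1014-Ctrl from −1.27 to −0.95, and the mean change with GRP+RC from 0.24 to 0.30; the latter was 0.28 with the block and 0.24 without the discordant libraries. Depth limits Nmbr, Brs3 and Grp, which fell under the filter on low counts and were not tested.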
